A study of Mus musculus with 16 samples.

Results

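The genes described here are 38 genes that bring amino acids into a T cell, make them, or load them onto transfer RNA (tRNA). They were chosen by gene symbol, with earlier results of these data known. They fall into 3 groups: 9 transporters, 9 genes of amino acid synthesis and of the ATF4 response, and 20 cytosolic aminoacyl-tRNA synthetases. All 38 were found among the 23337 gene symbols counted. Of these symbols 12952 had enough reads to be tested, among them 37 of the 38; the exception was Chac1, which is given by its reads.

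Messenger RNA was sequenced from mouse CD4+ T cells transfected with a synthetic microRNA, called a mimic. The 4 groups received miR-23a, miR-24, miR-27a or a control mimic, with 4 libraries each and 16 in all. The cells of every group, controls included, came from C57BL/6 mice that carried Dgcr8 f/f, CD4-cre and a Cre-activated YFP reporter (Rosa-YFP) and were Tbet-/-. CD4-cre is active in the whole T cell lineage, so the genotype deletes the floxed part of Dgcr8, which is needed to make most microRNAs, in T cells; Tbet-/- removes T-bet (gene Tbx21). Cells from spleen and lymph nodes were stimulated with antibodies to CD3 and CD28 and 10 units/ml of IL-4 for 3 days, then kept in 20 units/ml of IL-2 for 2 days. Mimics at 500 nM were given on day 1 and day 4, and live YFP-positive cells were sorted. The labels number the libraries 1 to 4 in each group but do not say which came from separate mice, so the p-values measure the spread between libraries. The age of the mice is not given in the sources used here.

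A T cell that has been activated must take up and make large amounts of amino acids to grow and divide. Uncharged tRNA activates the kinase GCN2, which phosphorylates the translation factor eIF2α; translation then slows in general while the mRNA of the transcription factor ATF4 is translated better. ATF4 binds C/EBP-ATF response elements and switches on amino acid transporters, synthesis enzymes and tRNA synthetases, and other stresses reach it through other eIF2α kinases. Slc7a5 and Slc3a2 together form the main importer of large neutral amino acids in activated T cells.

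The mimics differ in the seed, bases 2 to 8, which pairs with target mRNAs. The sequences of the mature 3p strands are shown because the target sites searched for below follow from them. They are from RefSeq (GRCm38.p6), with the seed in capitals. The labels do not give the strand or sequence of the mimics, and the 3p strand was assumed.
mmu-miR-23a-3p: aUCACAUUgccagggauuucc
mmu-miR-24-3p: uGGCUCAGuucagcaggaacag
mmu-miR-27a-3p: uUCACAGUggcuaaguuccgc
The 3 seeds differ from each other. The strands for miR-23a, miR-27a and miR-24 lie close together on the plus strand of chromosome 8, at chr8:84208563-84208583, chr8:84208727-84208747 and chr8:84208875-84208896. The same miR-24 strand is also encoded at chr13:63301251-63301272.

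Reads counted in genes ranged from 2120408 to 13714841 in 15 libraries. Control replicate 1 held 51474, of which 144 fell on the 38 genes. In that library 1 read was worth 16.3 CPM (a count relative to the TMM-scaled size of its library) and 3 reads 48.8 CPM, so a low gene there reads as 0 or as a large value. The ribosomal transcript Rn45s took 0.300% to 4.41% of gene reads with the control mimic and 1.65% to 19.1% with miR-24. The summed level of 6 T cell markers was 3272 to 4813 CPM in controls and 3315 to 4440 with miR-23a. It was 2525 to 3357 CPM with miR-24 and 2540 to 3236 with miR-27a. Cd28 had the highest mean of the 6 in each group, at 2123, 1675, 1516 and 1035 CPM in the same order. With miR-24 the means of all but Cd3d were below control. With miR-27a the means of Cd3e, Cd28 and Gata3 were below control and those of Cd3d, Cd3g and Cd4 above it. The part of these differences in the results was not tested. Over all libraries, the summed markers of class II genes reached 113 CPM, of CD8 T cells 35.7 CPM and of B cells 18.1 CPM. Each of these was highest in a miR-27a library. Those of myeloid cells reached 17.8 CPM, in a miR-23a library, and of dendritic cells 7.03 CPM, in a control library. Of the 3 NK cell markers Ncr1 was at 0 in every library and Klrb1c at 0 in all but 1, of miR-23a, while Klrd1 was at 0.167 to 0.576 CPM in the 4 miR-24 libraries and at 0 in the other 12; its part in the results was not tested. Tbx21 was at most 5.20 CPM. Dgcr8 was at 32.5 to 58.4 CPM in the 15 deeper libraries, a count over the whole gene that does not show whether the floxed part was deleted. The labels and files do not give a cell count per library, and in these bulk samples fewer cells of a type and less RNA per cell cannot be told apart.

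The 38 genes took 0.285% to 0.350% of all gene reads with miR-24, 0.215% to 0.282% with the control mimic, 0.237% to 0.281% with miR-23a and 0.238% to 0.297% with miR-27a, so that miR-24 was above control and miR-23a and overlapped miR-27a. Tested over all 4 groups with the replicate number as a block, 13 of the 37 genes differed between groups, against 9.68% of all genes tested (edgeR quasi-likelihood test with Benjamini-Hochberg adjustment, threshold 0.05). They were the transporters Slc7a5, Slc1a4 and Slc43a1; the synthesis and response genes Asns, Psat1, Phgdh, Shmt2 and Atf4; and the synthetases Cars, Mars, Vars, Wars and Yars. Without the block the count was 6 against 1.94% of all genes, and the 6 were Slc7a5, Slc1a4, Slc43a1, Asns, Vars and Yars. Leaving out miR-24 replicate 3 lowered the count with the block to 6. Because the genes were chosen with earlier results of these data known, counts set beside the share of all genes are a description.

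Set against the control mimic, miR-24 gave 12 calls among the 37 genes, 11 higher and 1 lower, against 4.56% of all genes called (2.32% higher and 2.25% lower). The median log2 fold change was 0.52 over the 37 genes and 0.04 over all genes tested, and 31 of the 37 fold changes were positive, against 53.1% of all genes tested. Positive fold changes against control were also 24 of the 37 with miR-23a and 28 with miR-27a. Without the block 5 of the 37 were called, against 0.849% of all genes. Dropping control replicate 3 cut the 12 calls to 4, dropping miR-24 replicate 3 to 5 and dropping control replicate 4 to 7. With Rn45s left out of the counts the number stayed 12. The 2 other mimics, compared with the same control libraries, gave 0 calls for miR-23a (0.425% of all genes called) and 2 for miR-27a, 1 higher and 1 lower (3.07% of all genes called, 1.75% higher and 1.32% lower).

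**Figure D1:**
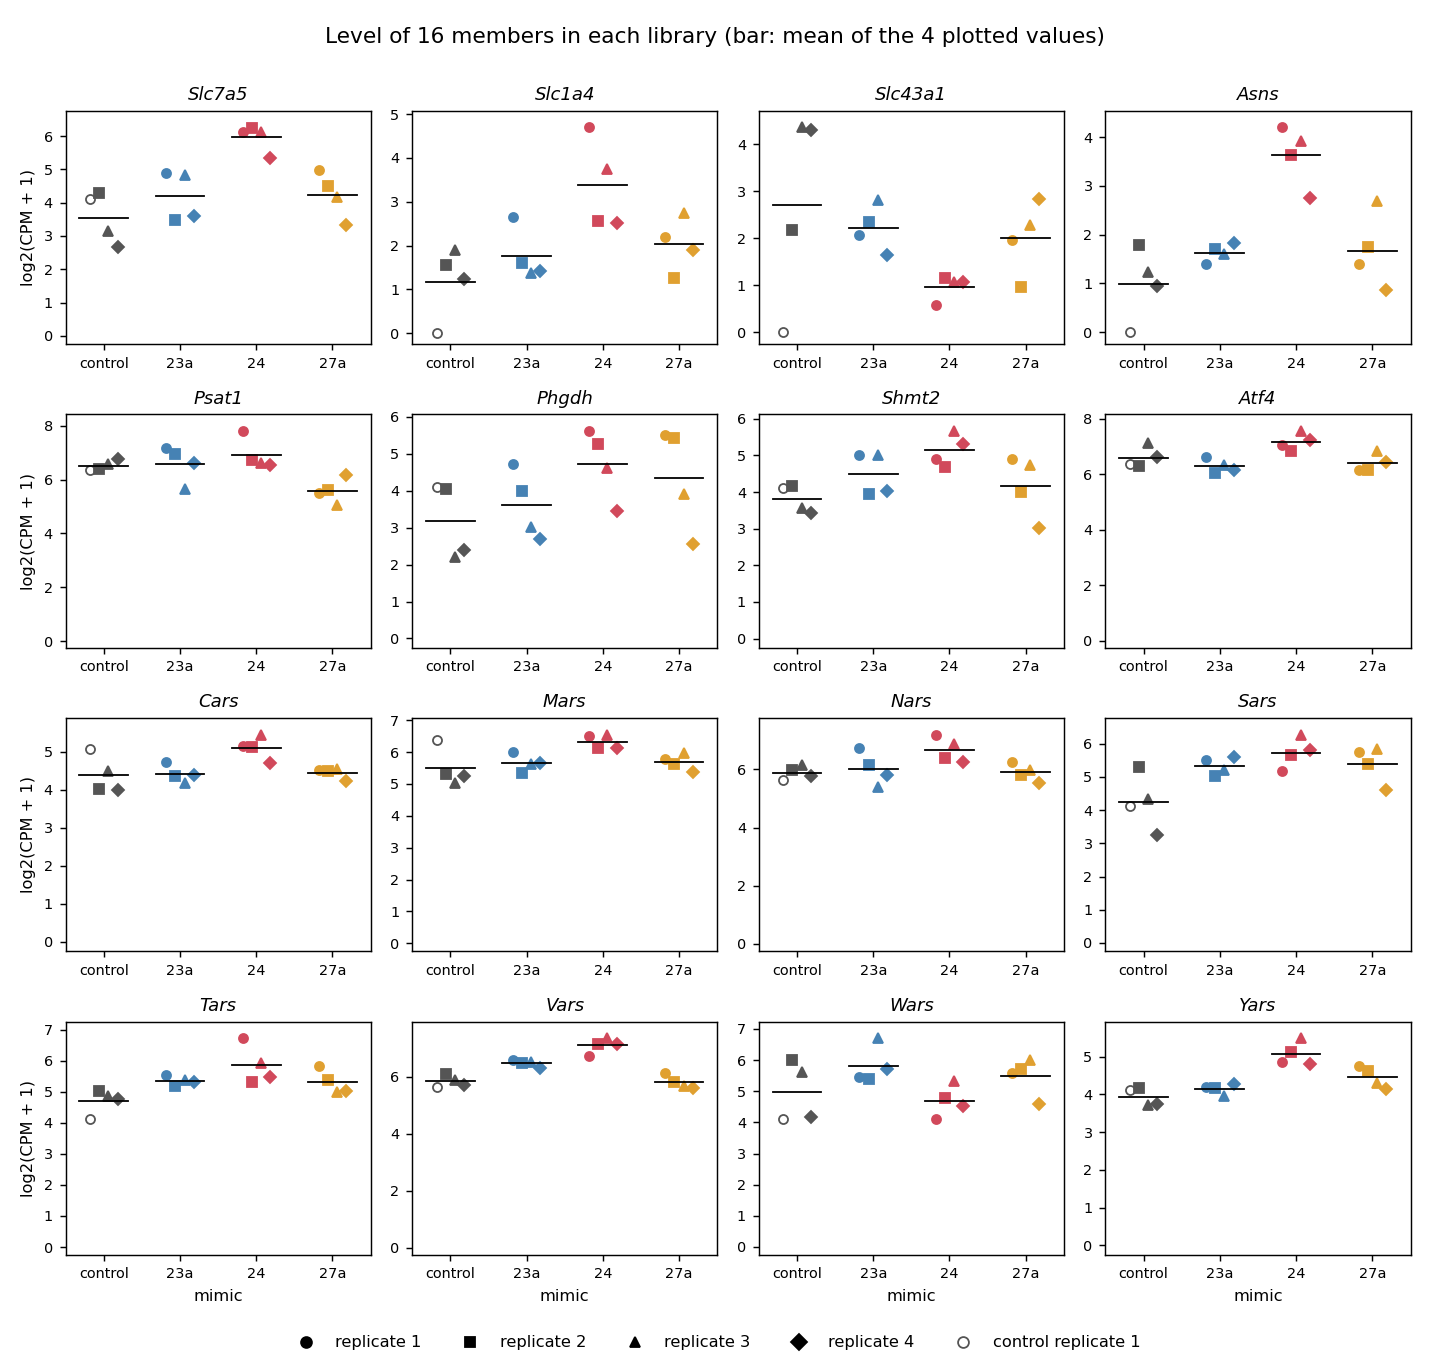
Level of 16 of the 38 genes in each library, as log2(CPM + 1), by mimic. Each point is 1 library, its shape is the replicate number, the open circle is the shallow control replicate 1 and the bar is the mean of the plotted values; the miR-24 points of Slc7a5, Asns, Vars and Yars lie above every control point.

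Among the transporters, 3 of 9 passed the test between miR-24 and control, 2 higher and 1 lower. Of all genes tested, 2.32% were called higher and 2.25% lower. The clearest of the 3 transporters was Slc7a5, the catalytic light chain of the large neutral amino acid importer. In replicate order, Slc7a5 was at 16.3, 18.6, 7.84 and 5.33 CPM with the control mimic, the first of these from 1 read. With miR-24 Slc7a5 was at 68.0, 75.3, 69.2 and 39.7 CPM. The miR-24 libraries were all higher than every other library of the series, since Slc7a5 reached 28.9 CPM at most with miR-23a (28.9, 10.2, 27.4 and 11.1) and 30.3 CPM with miR-27a (30.3, 21.6, 17.0 and 9.03). The log2 fold change of Slc7a5 against control was 2.49 ± 0.34 (SE, n = 4 per group; edgeR adjusted p = 0.000676, and 0.0145 without the block). Against the other mimics it was 1.72 ± 0.30 over miR-23a (edgeR adjusted p = 0.00251, and 0.0651 without the block) and 1.79 ± 0.31 over miR-27a (edgeR adjusted p = 0.00269, and 0.0690 without the block). With the block all 3 calls held in all 16 leave-one-out fits, each of which drops 1 of the 16 libraries, but without it only the call against control held.

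Its partner Slc3a2, the heavy chain that carries Slc7a5 to the cell surface, did not pass the test. Slc3a2 was at 48.8 (3 reads), 45.8, 73.0 and 30.3 CPM in controls and at 46.6, 64.2, 104 and 60.1 CPM with miR-24. With miR-23a it was at 35.6, 32.3, 85.0 and 38.1 CPM, and with miR-27a at 43.9, 43.2, 96.4 and 32.4 CPM. All 4 groups overlapped, and replicate 3 was the highest library of Slc3a2 in each of them. The log2 fold change with miR-24 was 0.58 ± 0.21 (SE, n = 4 per group; edgeR adjusted p = 0.130).

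Slc1a4, an exchanger of alanine, serine and cysteine, rose with miR-24 from a low level. It was at 0, 1.96, 2.70 and 1.37 CPM in controls and at 24.9, 4.85, 12.5 and 4.67 CPM with miR-24. The miR-24 libraries lay above all controls and differed widely among themselves, with the highest level in replicate 1. With miR-23a Slc1a4 was at 5.29, 2.05, 1.58 and 1.68 CPM, and with miR-27a at 3.55, 1.41, 5.70 and 2.74 CPM. The log2 fold change against control was 1.95 ± 0.45 (SE, n = 4 per group; edgeR adjusted p = 0.0200, and 0.0689 without the block). Dropping control replicate 3, control replicate 4 or miR-24 replicate 3 lost this call, at edgeR adjusted p of 0.123, 0.0654 and 0.0932.

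Slc43a1, a facilitated carrier of large neutral amino acids also called LAT3, was the only member that fell with miR-24. With the control mimic it was at 0, 3.53, 19.5 and 18.9 CPM, and with miR-24 at 0.501, 1.23, 1.10 and 1.09 CPM, from 3, 15, 13 and 11 reads. The miR-24 libraries were lower than controls 2 to 4, which differed widely from each other, and the 0 in control replicate 1 is a library in which 1 read counts 16.3 CPM. Slc43a1 was at 3.23, 4.10, 6.07 and 2.14 CPM with miR-23a and at 2.90, 0.939, 3.88 and 6.13 CPM with miR-27a. Its log2 fold change with miR-24 was -3.41 ± 0.55 (SE, n = 4 per group; edgeR adjusted p = 0.00182, and 0.00946 without the block), and the call held in all 16 leave-one-out fits. Slc43a1 was also lower with miR-24 than with miR-23a, by a log2 fold change of -1.91 ± 0.52 (edgeR adjusted p = 0.0380, and 0.119 without the block). That difference was lost in 7 of the 16 fits, those without control replicate 1, miR-23a replicates 1, 2 or 3, or miR-24 replicates 1, 3 or 4, with edgeR adjusted p up to 0.163.

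The other 5 transporters carry glutamine and small neutral amino acids (Slc1a5, Slc38a1, Slc38a2), cationic amino acids (Slc7a1), or exchange both kinds (Slc7a6). Their mean levels in controls ran from 27.3 ± 5.45 CPM for Slc7a6 to 734 ± 239 CPM for Slc38a2 (SD, n = 4). With miR-24 Slc38a2 was at 761 ± 96.0 CPM and Slc1a5 at 29.5 ± 4.45 CPM against 32.5 ± 11.3 CPM in controls. The control mean of Slc1a5 included 48.8 CPM from 3 reads in control replicate 1. Its other controls were at 24.6, 31.4 and 25.1 CPM. None of the 5 passed the test in any of the 7 tests, by edgeR with the block. Among the 6 transporters not called with miR-24, log2 fold changes ran from 0.06 to 0.63.

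The synthesis and ATF4 genes had the largest median change with miR-24. Of the 8 that were tested, 3 rose and none fell, against 2.32% of all genes called higher and 2.25% lower. All 8 fold changes were positive, against 53.1% of all genes tested. The median log2 fold change was 1.33, against 0.04 over all genes tested. The medians against control were 0.39 with miR-23a and 0.71 with miR-27a, each with 6 of 8 positive. Asns, which makes asparagine from aspartate and glutamine, was at 0, 2.45, 1.35 and 0.914 CPM in controls and at 17.4, 11.4, 14.1 and 5.76 CPM with miR-24. Each miR-24 library was above all libraries of the other groups, where Asns was 1.61, 2.28, 2.02 and 2.52 CPM with miR-23a and 1.61, 2.35, 5.47 and 0.806 CPM with miR-27a. The change of Asns over control was 7.58-fold, a log2 fold change of 2.92 ± 0.52 (SE, n = 4 per group; edgeR adjusted p = 0.00387, and 0.0148 without the block). It was 2.38 ± 0.45 over miR-23a (edgeR adjusted p = 0.00430, and 0.0186 without the block) and 2.21 ± 0.46 over miR-27a (edgeR adjusted p = 0.00944, and 0.0495 without the block). These 3 calls held without the block and in all 16 leave-one-out fits, where the largest edgeR adjusted p for Asns over control was 0.0489, without control replicate 3. With all libraries numbered 1 left out, the Asns calls over miR-23a and miR-27a were lost. The call over miR-27a was also lost without both the block and control replicate 1.

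Serine is made in 3 steps, by Phgdh, Psat1 and Psph in that order, and Shmt2 turns it into glycine in mitochondria. Against control, the fold changes of these 4 genes were all positive with miR-24. With miR-27a, Phgdh and Psat1 were called in opposite directions. Phgdh was at 16.3 (1 read), 15.4, 3.60 and 4.27 CPM in controls, 48.0, 37.3, 23.3 and 9.93 CPM with miR-24, and 44.5, 42.3, 14.1 and 4.84 CPM with miR-27a. Within each number Phgdh was higher with either mimic than in the control, but the groups overlapped, because libraries 1 and 2 were higher than 3 and 4 in every group. With miR-23a, too, the order was the same, at 25.3, 14.8, 7.12 and 5.43 CPM. With the block the log2 fold change of Phgdh was 1.66 ± 0.32 for miR-24 (SE, n = 4 per group; edgeR adjusted p = 0.00652) and 1.28 ± 0.32 for miR-27a (edgeR adjusted p = 0.0367). Without the block neither passed, with edgeR adjusted p of 0.268 and 0.324. The miR-24 call of Phgdh was lost only without control replicate 3 among the 16 fits (edgeR adjusted p = 0.0725). The miR-27a call was lost in 7 of them, without control replicates 1 or 3, miR-23a replicate 4, miR-24 replicate 2 or miR-27a replicates 1, 2 or 3, with edgeR adjusted p up to 0.215.

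Psat1, the second enzyme, moved the other way with miR-27a. It was at 81.4 (5 reads), 83.1, 93.9 and 107 CPM in controls and at 44.5, 48.4, 32.5 and 71.3 CPM with miR-27a. All 4 miR-27a libraries lay below all 4 controls. With miR-23a Psat1 was at 144, 122, 49.2 and 97.8 CPM, and with miR-24 at 222, 104, 97.7 and 92.8 CPM, and both groups spread widely. The log2 fold change of Psat1 with miR-27a was -1.05 ± 0.28 against control (SE, n = 4 per group; edgeR adjusted p = 0.0466, and 0.237 without the block) and it fell by 1.00 ± 0.27 on the same scale against miR-23a (edgeR adjusted p = 0.0482, and 0.200 without the block). Each of these calls was lost in 10 of the 16 leave-one-out fits. For the first, these were the fits without control replicates 1, 3 or 4, miR-23a replicates 1 or 4, miR-24 replicates 2 or 3, or miR-27a replicates 1, 2 or 3, with edgeR adjusted p up to 0.238. For the second they were those without control replicates 1 or 4, miR-23a replicates 1, 2 or 4, miR-24 replicates 2 or 3, or miR-27a replicates 1, 2 or 3, with edgeR adjusted p up to 0.193. Psat1 was higher with miR-24 than with miR-27a, by a log2 fold change of 1.34 ± 0.27 (edgeR adjusted p = 0.00803, and 0.0547 without the block), and this call held in each of the 16 fits.

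Shmt2 was at 16.3 (1 read), 17.0, 10.9 and 9.75 CPM in controls and at 28.7, 24.6, 49.7 and 38.9 CPM with miR-24. No control library of Shmt2 reached the lowest miR-24 library, while the miR-23a values of 31.1, 14.3, 31.0 and 15.3 CPM and the miR-27a values of 28.7, 15.0, 25.5 and 7.10 CPM overlapped both. Its log2 fold change with miR-24 was 1.38 ± 0.36 (SE, n = 4 per group; edgeR adjusted p = 0.0370, and 0.117 without the block). The call was lost in 8 of the 16 fits, without control replicates 1, 3 or 4, miR-23a replicate 4, miR-24 replicates 2, 3 or 4, or miR-27a replicate 2, with edgeR adjusted p up to 0.214. Psph, the last enzyme of serine synthesis, was at 14.5 ± 13.5 CPM in controls and 19.8 ± 3.65 CPM with miR-24 (SD, n = 4) and did not pass, at a log2 fold change of 1.28 ± 0.47 (edgeR adjusted p = 0.137). Shmt2 and Psph share exon bases with Ndufa4l2 (32 bases) and Cct6a (452 bases) on the opposite strand; the strand setting of the counts is not given in the sources used here, so reads from there cannot be told apart.

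The mRNA of ATF4 itself was at 81.4 (5 reads), 77.1, 138 and 97.5 CPM in controls and at 133, 114, 187 and 148 CPM with miR-24. It was at 98.8, 65.4, 79.1 and 69.6 CPM with miR-23a and at 70.3, 69.5, 115 and 86.3 CPM with miR-27a. Atf4 was higher with miR-24 than in the same-numbered library of each other group, although miR-24 and control overlapped. Against control the log2 fold change was 0.52 ± 0.19 (SE, n = 4 per group; edgeR adjusted p = 0.122), which did not pass. Against miR-23a it was 0.87 ± 0.18 (edgeR adjusted p = 0.00724, and 0.0725 without the block) and against miR-27a 0.77 ± 0.18 (edgeR adjusted p = 0.0184, and 0.135 without the block). The first of these was lost without miR-23a replicate 3 (edgeR adjusted p = 0.0552). The second was lost without miR-24 replicates 2 or 3 or miR-27a replicates 1, 2 or 3, with edgeR adjusted p up to 0.0893. ATF4 is regulated largely at translation, which mRNA counts do not measure.

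Ddit3, the stress transcription factor CHOP, and Trib3, a pseudokinase that inhibits ATF4, are switched on by ATF4 in prolonged stress. Ddit3 was at 0, 17.6, 7.12 and 8.99 CPM in controls, 20.9, 14.6, 9.94 and 9.86 CPM with miR-23a, 19.2, 31.2, 20.5 and 9.44 CPM with miR-24, and 16.5, 27.7, 9.96 and 18.4 CPM with miR-27a. The 4 groups overlapped, and the log2 fold change of Ddit3 with miR-24 was 0.85 ± 0.34 (SE, n = 4 per group; edgeR adjusted p = 0.163). Trib3 was at 0, 2.16, 0.180 and 1.98 CPM in controls and at 10.9, 4.52, 6.11 and 1.39 CPM with miR-24. Its log2 fold change of 1.92 ± 0.69 did not pass either (SE, n = 4 per group; edgeR adjusted p = 0.123). Chac1, an enzyme that degrades glutathione and a known ATF4 target, was not tested for want of reads. In replicate order Chac1 had 12, 10, 27 and 18 reads with miR-24 (2.00, 0.823, 2.29 and 1.79 CPM) and 0, 3, 0 and 0 reads with the control mimic. There were 0, 0, 3 and 3 reads of Chac1 with miR-23a and 2, 2, 0 and 0 with miR-27a. Scaled to library size, the 2 reads in miR-27a replicates 1 and 2 were 0.645 and 0.939 CPM, so that miR-24 and miR-27a overlapped, and the highest control was 0.294 CPM.

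**Figure D2:**
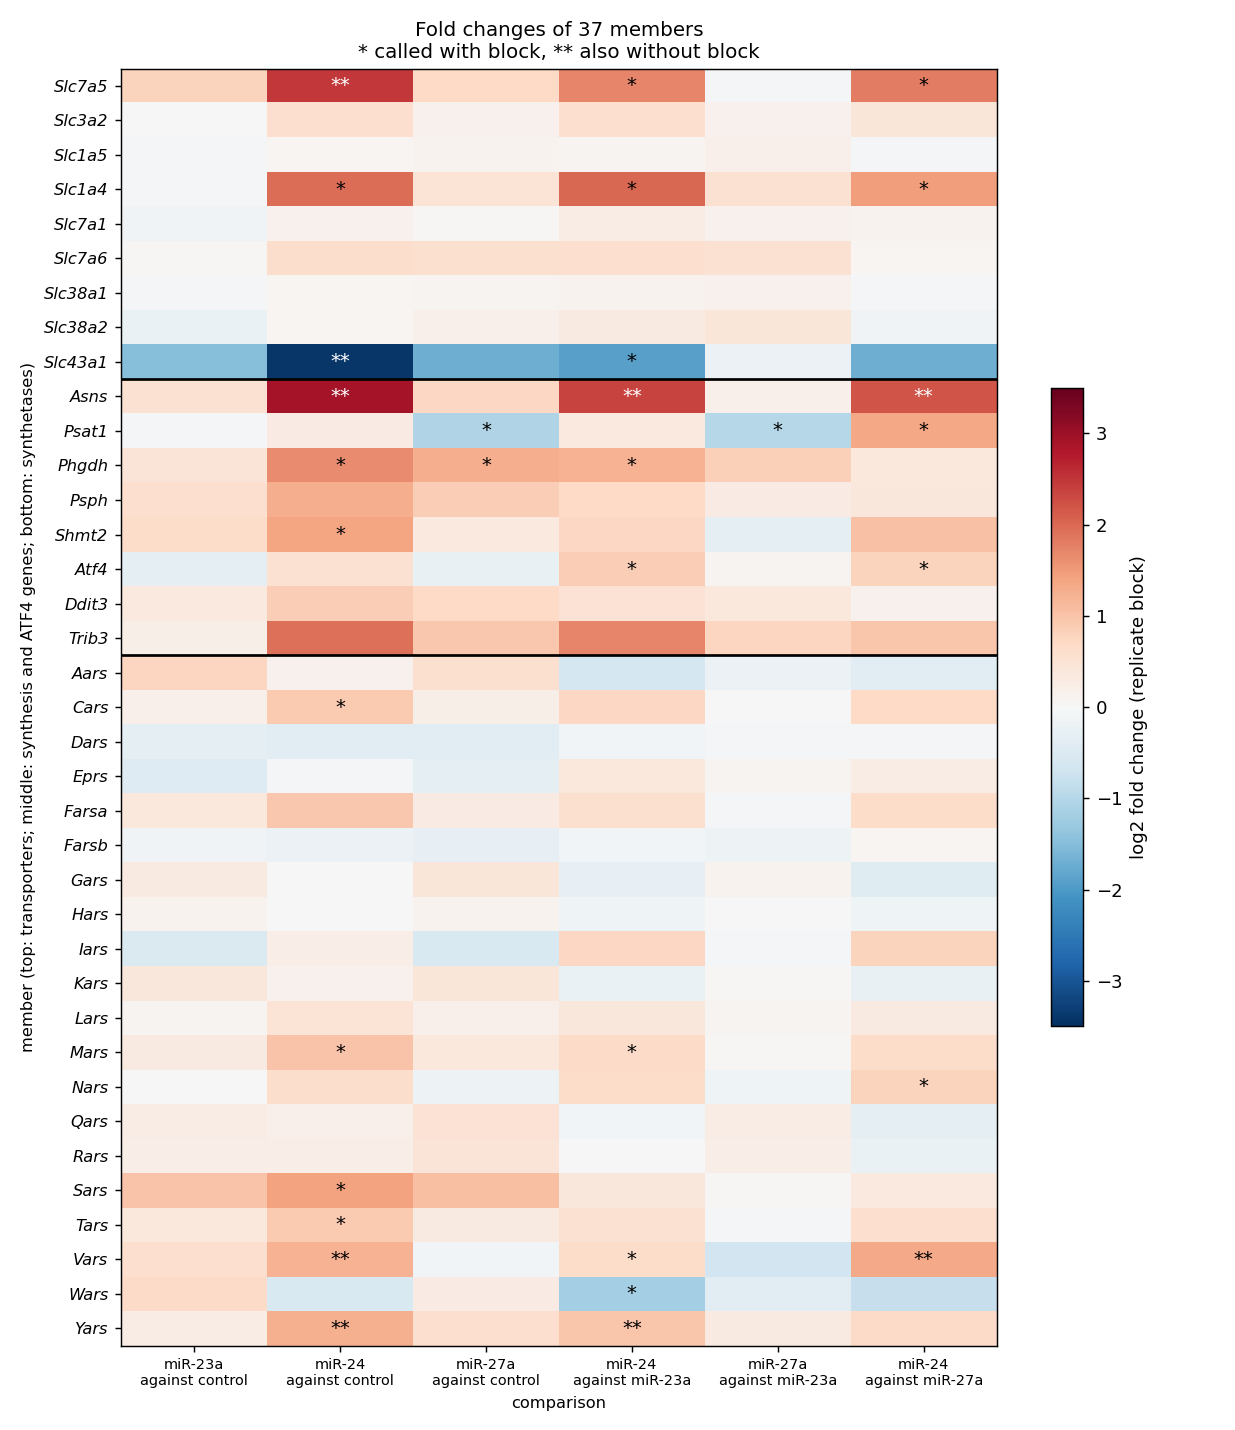
Log2 fold change of the 37 tested genes (rows, in the groups transporters, synthesis and ATF4 genes, and synthetases) in the 6 comparisons of 2 mimics (columns), from the fit with the replicate block. Color gives the fold change, 1 asterisk an edgeR adjusted p under 0.05 with the block and 2 asterisks one under 0.05 also without it. Against control 12 genes were called with miR-24 (4.56% of all genes called) and 0 with miR-23a (0.425% of all genes called).

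The cytosolic synthetases each join 1 amino acid to its tRNA, except Eprs, which joins both glutamate and proline, and Farsa and Farsb, which form 1 enzyme. Of these 20 genes 6 rose with miR-24 and none fell, against 2.32% of all genes called higher and 2.25% lower. The median log2 fold change was 0.23 and 15 of 20 were positive, against 53.1% of all genes tested. The other mimics had similar medians against control without any call. These were 0.27 with miR-23a (15 of 20 positive) and 0.29 with miR-27a (14 of 20 positive). Vars (valine) was at 48.8 (3 reads), 68.1, 57.7 and 51.8 CPM in controls and at 106, 139, 162 and 142 CPM with miR-24. It was at 95.1, 88.1, 89.5 and 78.0 CPM with miR-23a and at 68.7, 55.9, 50.3 and 47.1 CPM with miR-27a. By CPM the groups fell in 3 levels, with miR-24 above miR-23a, and miR-23a above both control and miR-27a, which overlapped. Vars did not pass the test between miR-23a and control or between miR-27a and miR-23a. The log2 fold change of Vars with miR-24 was 1.23 ± 0.20 against control (SE, n = 4 per group; edgeR adjusted p = 0.00182, and 0.00946 without the block) and 1.32 ± 0.19 against miR-27a (edgeR adjusted p = 0.000822, and 0.00570 without the block). Both calls held in all 16 leave-one-out fits. Over miR-23a it was 0.65 ± 0.18 (edgeR adjusted p = 0.0420, and 0.108 without the block), which was lost in 10 of the 16 fits: those without control replicate 3, any miR-23a library, miR-24 replicates 2, 3 or 4, or miR-27a replicates 2 or 3, with edgeR adjusted p up to 0.211.

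Yars (tyrosine) was at 16.3 (1 read), 17.2, 12.2 and 12.3 CPM in controls and at 28.2, 34.1, 44.0 and 27.0 CPM with miR-24. With miR-23a Yars was at 17.4, 17.1, 14.4 and 18.2 CPM, and with miR-27a at 26.1, 23.5, 18.6 and 16.8 CPM. Every miR-24 library of Yars was above the other 12. The log2 fold change was 1.25 ± 0.26 against control (SE, n = 4 per group; edgeR adjusted p = 0.00945, and 0.0208 without the block) and 0.98 ± 0.23 against miR-23a (edgeR adjusted p = 0.0180, and 0.0450 without the block). Dropping control replicate 3 or miR-24 replicate 3 lost the first call, at edgeR adjusted p of 0.0903 and 0.0822. The second was lost without miR-23a replicates 1, 2 or 3 or miR-24 replicates 2 or 3, with edgeR adjusted p up to 0.132. Yars shares 30 exon bases with C77080 on the opposite strand.

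Mars (methionine), Cars (cysteine), Tars (threonine) and Sars (serine) rose with miR-24 in the fit with the block and did not pass without it; without both the block and control replicate 1, Mars passed. Mars was at 81.4 (5 reads), 38.5, 31.5 and 37.2 CPM in controls and at 88.9, 69.2, 92.3 and 69.5 CPM with miR-24, a log2 fold change of 1.00 ± 0.22 (SE, n = 4 per group; edgeR adjusted p = 0.0140, and 0.0537 without the block). Apart from the 5 reads of control replicate 1, the controls of Mars lay below all miR-24 libraries. Mars was at 62.6, 39.4, 48.4 and 49.4 CPM with miR-23a and at 54.5, 48.8, 61.1 and 40.5 CPM with miR-27a, and miR-24 exceeded miR-23a by 0.68 ± 0.20 on the log2 scale (edgeR adjusted p = 0.0496, and 0.178 without the block). Mars shares 68 exon bases with Ddit3 on the opposite strand. The Mars call against control was lost without control replicate 3 (edgeR adjusted p = 0.127) and miR-24 replicates 2 (0.0545) or 3 (0.0822), and the one against miR-23a in 12 of the 16 fits, those without any 1 library of miR-23a, miR-24 or miR-27a, with edgeR adjusted p up to 0.214.

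Cars was at 32.6 (2 reads), 15.3, 21.4 and 14.8 CPM in controls and at 34.3, 34.1, 42.7 and 25.1 CPM with miR-24. Tars was at 16.3 (1 read), 31.3, 28.4 and 26.1 CPM in controls and at 104, 38.7, 59.9 and 43.2 CPM with miR-24. Sars was at 16.3 (1 read), 38.2, 19.0 and 8.53 CPM in controls and at 35.3, 49.3, 76.3 and 55.5 CPM with miR-24. The groups were apart for Tars and overlapped for Cars and Sars. With the other mimics the levels were, for Cars, 17.2 to 25.4 CPM with miR-23a and 17.7 to 22.5 CPM with miR-27a, for Tars, 35.5 to 45.2 and 30.7 to 55.8 CPM, and for Sars, 31.7 to 47.7 and 23.4 to 56.6 CPM. The log2 fold changes with miR-24 against control were 0.90 ± 0.24 for Cars (edgeR adjusted p = 0.0385), 0.91 ± 0.24 for Tars (0.0422) and 1.39 ± 0.39 for Sars (0.0499), each SE with n = 4 per group. Without the block the edgeR adjusted p-values were 0.0963, 0.0910 and 0.140. All 3 calls were lost without control replicates 3 or 4, miR-24 replicates 3 or 4 or miR-27a replicates 2 or 3. Cars was also lost without control replicate 2, miR-23a replicate 4 or miR-24 replicate 2, Tars without control replicate 1, miR-23a replicates 3 or 4 or miR-27a replicate 1, and Sars without control replicate 1, miR-23a replicates 1 or 3 or miR-24 replicate 2. The edgeR adjusted p of these fits reached 0.203 for Cars, 0.174 for Tars and 0.243 for Sars.

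Wars (tryptophan) and Nars (asparagine) passed the test between mimics but not against control. Wars was at 43.1, 40.8, 103 and 51.5 CPM with miR-23a and at 16.4, 26.5, 39.2 and 21.9 CPM with miR-24, groups that did not overlap. Controls of Wars were at 16.3 (1 read), 63.7, 48.2 and 16.9 CPM and miR-27a libraries at 47.1, 51.2, 63.3 and 23.2 CPM, overlapping both. Wars was lower with miR-24 than with miR-23a, by a log2 fold change of -1.20 ± 0.29 (SE, n = 4 per group; edgeR adjusted p = 0.0192, and 0.193 without the block). The call was lost without miR-23a replicates 3 or 4 or miR-24 replicates 1, 2 or 3, with edgeR adjusted p up to 0.107. Against control the log2 fold change of Wars was -0.54 ± 0.31 (edgeR adjusted p = 0.343). Nars was at 145, 82.1, 115 and 75.4 CPM with miR-24 and at 75.2, 55.4, 62.5 and 45.5 CPM with miR-27a. Every miR-24 library of Nars was above the miR-27a libraries, the nearest of them narrowly, and the log2 fold change was 0.79 ± 0.21 (edgeR adjusted p = 0.0381, and 0.189 without the block). That call was lost in 8 of the 16 fits, without miR-23a replicate 4, miR-24 replicates 1, 2 or 3, or any miR-27a library, with edgeR adjusted p up to 0.187. Nars was at 48.8 (3 reads), 62.3, 69.5 and 53.6 CPM in controls and at 106, 69.9, 41.3 and 54.6 CPM with miR-23a.

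The remaining 12 synthetases passed none of the 7 edgeR tests with the block. Among the 14 synthetases not called with miR-24 against control, log2 fold changes ran from -0.54 to 0.93. Farsa had the highest of these, at 0.93 ± 0.36 (SE, n = 4 per group; edgeR adjusted p = 0.146), from 7.55 ± 5.44 CPM in controls and 19.2 ± 4.27 CPM with miR-24 (SD, n = 4), whereas its partner Farsb was at 65.7 ± 10.7 and 54.1 ± 3.94 CPM. Gars (glycine) was at 74.1 ± 7.52 and 77.1 ± 13.3 CPM, and Eprs at 236 ± 39.7 and 222 ± 63.6 CPM. Iars (isoleucine) ranged from 98.4 to 389 CPM within the miR-24 group. Aars (alanine) shares 1326 exon bases with Exosc6 on the same strand. On the opposite strand, Farsb shares 248 with Sgpp2 and Hars 195 with Hars2, so these counts are less certain.

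**Figure D3:**
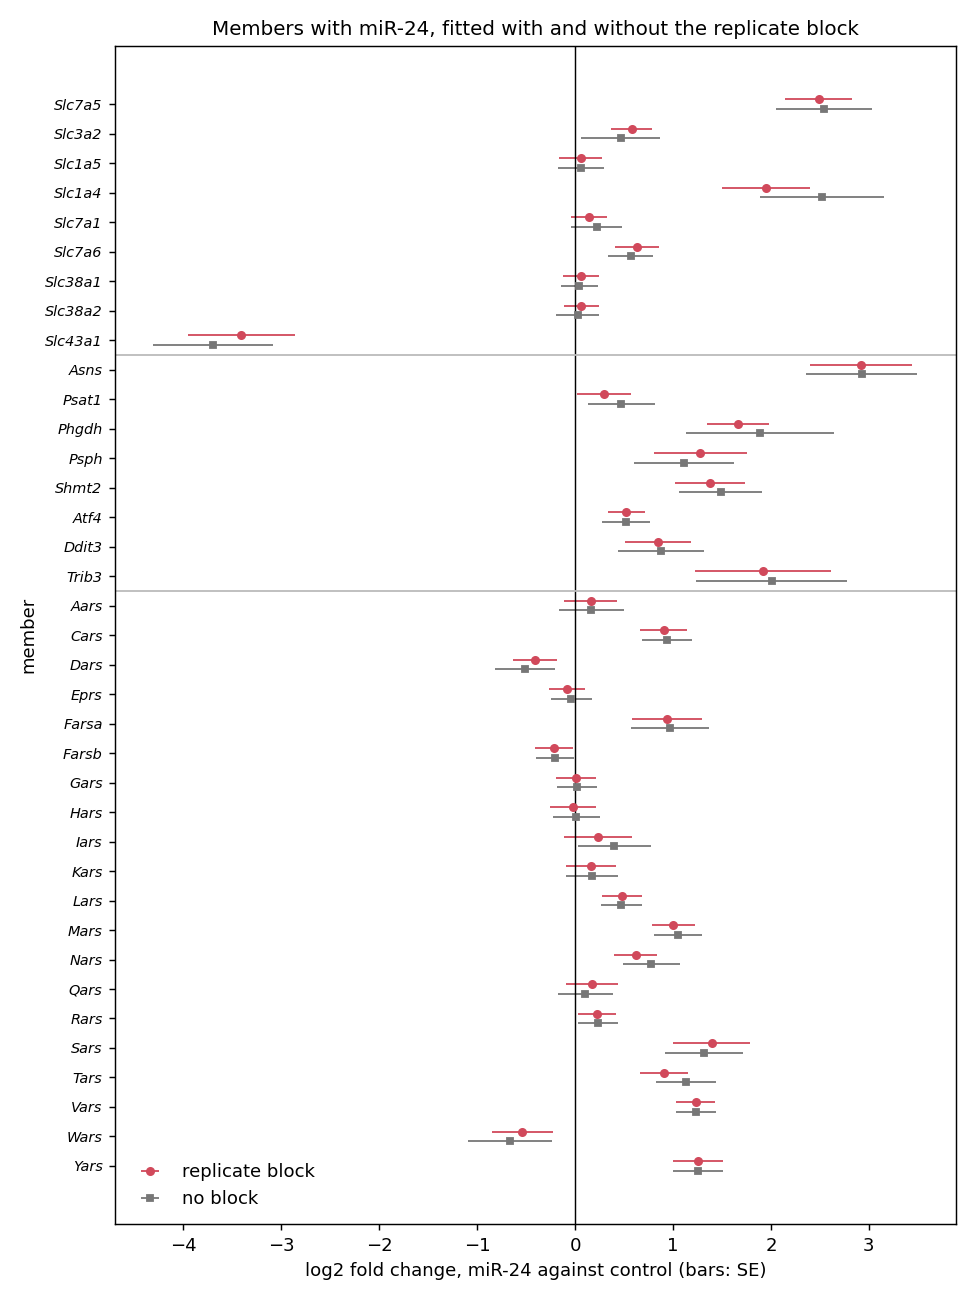
Log2 fold change of the 37 tested genes with miR-24 against control, with bars of 1 SE, from the fits with (red) and without (grey) the replicate block; lines separate the gene groups. Both fits gave similar fold changes, with Asns at 2.92 and Slc43a1 at -3.41 as the extremes with the block.

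With miR-23a no member passed the test against control by edgeR, with the block or without it (0.131% of all genes called); at an unadjusted p under 0.05 there were 7 with the block and 4 without it. DESeq2 and limma voom also called 0. The median log2 fold change over the 37 genes was 0.20, with 24 positive, against 52.9% of all genes tested. Leaving out control replicate 2 gave 2 calls. With miR-27a the median was 0.30, with 28 of the 37 positive, against 51.4% of all genes tested. The 2 calls were Phgdh (higher) and Psat1 (lower). None remained without the block, where 0.170% of all genes were called. Both calls were lost without control replicate 1.

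Direct comparison of the mimics gave 10 calls for miR-24 against miR-23a, 8 higher and 2 lower, against 5.38% of all genes (2.65% higher and 2.73% lower). The 8 higher were Slc7a5, Slc1a4, Asns, Phgdh, Atf4, Mars, Vars and Yars, and the 2 lower Slc43a1 and Wars. For miR-24 against miR-27a there were 7 calls, all higher, against 4.42% of all genes (1.80% higher): Slc7a5, Slc1a4, Asns, Psat1, Atf4, Nars and Vars. For miR-27a against miR-23a there was 1, Psat1, lower, against 2.95% of all genes (0.957% lower) and, without the block, 0 against 0.548%. Slc1a4 exceeded miR-23a by a log2 fold change of 2.00 ± 0.40 (edgeR adjusted p = 0.00634, and 0.0781 without the block) and miR-27a by 1.46 ± 0.40 (edgeR adjusted p = 0.0454, and 0.166 without the block), the latter lost in 10 of the 16 leave-one-out fits. Those were the fits without control replicates 1 or 3, miR-23a replicates 1 or 4, miR-24 replicates 1, 2 or 3, or miR-27a replicates 1, 2 or 3. Phgdh exceeded miR-23a by 1.21 ± 0.28 (edgeR adjusted p = 0.0160, and 0.525 without the block), lost without miR-23a replicates 2 or 3 or miR-24 replicate 3. These comparisons share the miR-24 libraries with each other and with the comparison against control. Without the block 2 calls were left for miR-24 against miR-23a (Asns and Yars; 1.10% of all genes called) and 2 against miR-27a (Asns and Vars; 0.880%). Dropping miR-23a replicates 3, 2 or 1 cut the 10 calls against miR-23a to 3, 5 and 6, and dropping miR-24 replicates 3 or 2 cut them to 4 and 6. The 7 against miR-27a became 4 without miR-24 replicates 2 or 3 or miR-27a replicates 1, 2 or 3.

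Other genes of these pathways were read from further lists. Of 23 genes for eIF2α kinases, eIF2 factors and ATF4-related targets, 2 passed with miR-24 against control, 1 higher and 1 lower. For calls with miR-24 against control in this and the next lists, the share of all genes called is the 4.56% given above. In lists of this size 1 or 2 such calls are near it. Atf5, a transcription factor translated and induced in the same response, was at 2.80 ± 2.66 CPM in controls and 22.7 ± 9.25 CPM with miR-24 (SD, n = 4), a log2 fold change of 2.43 ± 0.46 (edgeR adjusted p = 0.00612, and 0.0564 without the block). Eif2ak1, the heme-regulated eIF2α kinase, fell from 50.2 ± 15.7 to 25.1 ± 4.56 CPM, a log2 fold change of -0.82 ± 0.23 (edgeR adjusted p = 0.0487, and 0.0885 without the block). Nupr1, a stress-induced chromatin protein, was higher with miR-24 than with miR-23a, by a log2 fold change of 2.30 ± 0.58 (edgeR adjusted p = 0.0260, and 0.0781 without the block). Of 13 further transporters none passed with miR-24 against control. With miR-24 against miR-23a, 2 were higher (Slc7a11 and Slc16a10) and 1 lower (Slc43a2), against 5.38% of all genes called. With miR-24 against miR-27a, 1 was higher (Slc7a11) and 2 lower (Slc36a1 and Slc43a2), against 4.42% of all genes called. None of these calls held without the block. Slc7a11, which imports cystine, had log2 fold changes of 2.24 ± 0.52 over miR-23a (edgeR adjusted p = 0.0160, and 0.0802 without the block) and 2.02 ± 0.54 over miR-27a (edgeR adjusted p = 0.0400, and 0.139 without the block). Slc43a2, a carrier of large neutral amino acids, had -0.97 ± 0.26 (edgeR adjusted p = 0.0346, and 0.137 without the block) and fell by 1.00 ± 0.26 on that scale (edgeR adjusted p = 0.0334, and 0.116 without the block). Of 12 further synthesis genes 1 passed with miR-24 against control, Aldh18a1, the entry enzyme of proline synthesis, at a log2 fold change of 1.11 ± 0.30 (edgeR adjusted p = 0.0391, and 0.0900 without the block). Of 17 mitochondrial synthetases none passed with miR-24 against control, nor did any of the 3 scaffold proteins of the synthetase complex.

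The promoters of the members were searched for the letters TGATGNAA on either strand, the core of the C/EBP-ATF response element that ATF4 binds. RefSeq (GRCm38.p6) gave a promoter of 300 bases, from 250 before to 50 after the gene start, for 28 of the 38 members; Slc7a5, Vars, Cars and Nars are among the other 10. The motif was in 9 of the 28 (32.1%), against 239 of 10233 promoters of tested genes (2.34%) and 1096 of 27025 promoters in all (4.06%). Several members were chosen as known ATF4 targets, so this share is a description. The windows of 30 bases below show the motif, in capitals, 5′ to 3′ on the strand of the gene, first for the 4 called genes that hold it, then for Chac1 and Trib3, and last for 2 synthetases that hold it and were not called.
Asns, chr6:7693214-7693243: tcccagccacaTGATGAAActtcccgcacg
Slc1a4, chr11:20332699-20332728: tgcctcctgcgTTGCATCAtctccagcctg
Yars, chr4:129189895-129189924: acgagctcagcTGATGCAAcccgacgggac
Tars, chr15:11399655-11399684: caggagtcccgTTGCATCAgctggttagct
Chac1, chr2:119351038-119351067: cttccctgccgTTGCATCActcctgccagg
Trib3, chr2:152344028-152344057: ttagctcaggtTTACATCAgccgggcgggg
Gars, chr6:55037960-55037989: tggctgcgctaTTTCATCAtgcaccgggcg
Iars, chr13:49682126-49682155: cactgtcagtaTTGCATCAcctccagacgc
In Asns and Yars the motif reads forward, and in the other 6 as its reverse complement. The ninth member, Aars, held it at 2 places. With miR-24 against control, Gars (0.01 ± 0.21; edgeR adjusted p = 0.988), Iars (0.24 ± 0.35; 0.757) and Aars (0.16 ± 0.27; 0.798) had log2 fold changes within 1 SE of 0, so the promoters with the motif included both genes that rose and genes that did not pass. Mars, Sars, Phgdh and Shmt2 rose and had no match in the window. The letters CACGTG, the E-box bound by MYC and related factors, were in 5 of the 28 promoters (17.9%: Slc43a1, Farsb, Aars, Iars and Tars), against 9.98% of promoters of tested genes.

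**Figure D4:**
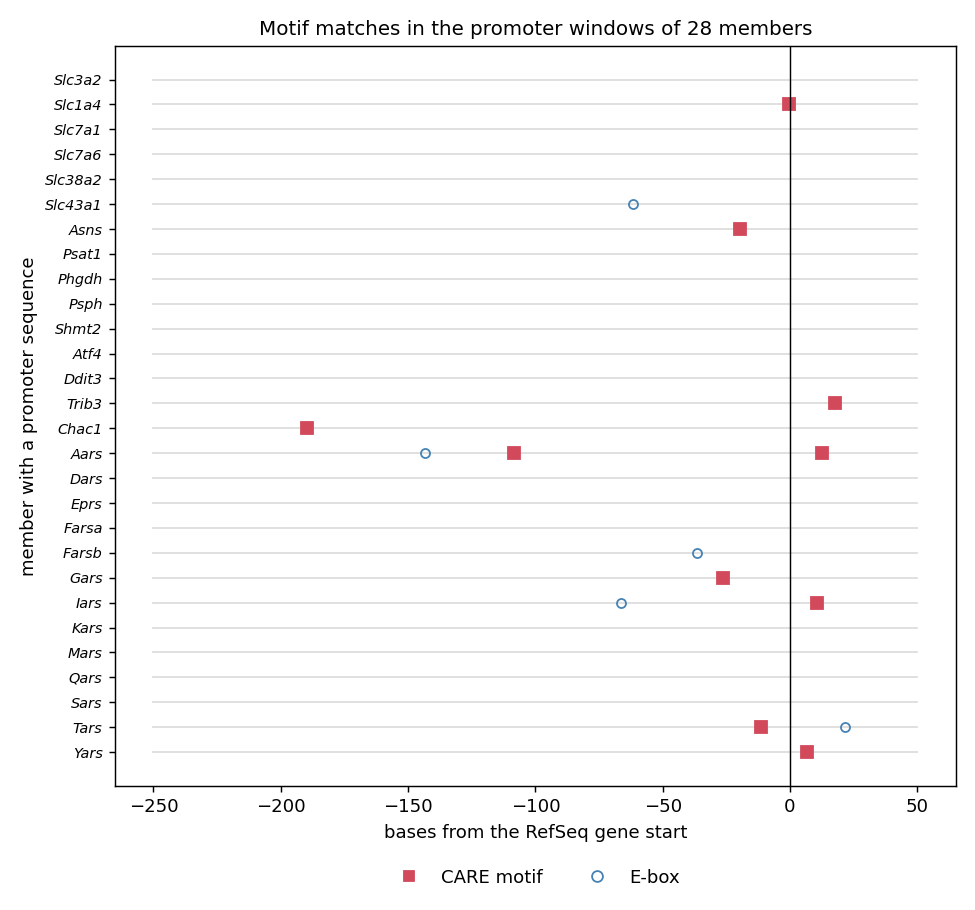
Places of the response element TGATGNAA (squares, labelled CARE) and of the E-box CACGTG (circles) in the promoter windows of 28 members, in bases from the RefSeq gene start; each grey line is 1 window. The element occurs in 9 windows and lies near the start in most of them, with Chac1 and 1 of the 2 Aars matches farther upstream.

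The 3′ UTRs were searched for sites that pair with the seeds (longest UTR per gene, GENCODE M21, GRCm38). The full 8-base sites are CTGAGCCA for miR-24, AATGTGAA for miR-23a and ACTGTGAA for miR-27a, and sites of 7 of these bases were also counted. For miR-24, 3 of 37 members held the full site (8.11%), against 8.89% of the 11012 tested genes searched, and 4 held any site (10.8% against 26.9%). For miR-23a the full site was in 2 members (5.41% against 7.28%), Slc7a1 and Slc38a1, and for miR-27a in 0 (6.63% of tested genes), with any site in 7 (18.9% against 25.4%) and 6 (16.2% against 29.9%). The 3 full miR-24 sites are shown, with the paired bases in capitals, and then a 7-base miR-27a site of each of the 2 members called with miR-27a against control, Psat1 and Phgdh. Other 7-base sites, not shown, include a further miR-27a site in Psat1, a miR-24 site in Tars, a miR-23a site in Yars and miR-27a sites in Slc7a5 and Trib3.
Wars, chr12:108860857-108860864: agacacgaggtCTGAGCCAgcctggtagta
Tars, chr15:11383157-11383164: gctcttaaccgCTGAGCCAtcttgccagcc
Aars, chr8:111056506-111056513: gcgccgggctgCTGAGCCAggccaagggct
Psat1, chr19:15905271-15905277: tccaccctcaaACTGTGAtcacgtggctgt
Phgdh, chr3:98313243-98313249: aaacccgctcaACTGTGAcctatagggaga
The coordinates are those of the capitals. Of the 3 genes with a full miR-24 site, Tars rose with miR-24 in the fit with the block, Wars was lower than with miR-23a but did not pass against control, and Aars passed no test. The Aars UTR searched has 2460 bases, and Aars shares 1326 exon bases with Exosc6 on the same strand. Whether the Aars site lies in these shared bases was not tested. The 6 members with a 7-base miR-27a site were Psat1, Phgdh, Slc7a5, Slc7a1, Trib3 and Dars; with miR-27a against control Psat1 fell, Phgdh rose and the other 4 were not called. Slc43a1, the member that fell with miR-24, held no miR-24 site.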

How the data were processed

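Messenger RNA was amplified from 1 ng of RNA of 150000 to 800000 sorted cells and sequenced as single 50-nt reads, with 4 libraries per lane, per the labels' protocols. The authors deposited raw read counts per gene symbol, 1 table per library, with 5 summary lines (64.6% to 77.6% of the reads in a table) that were left out. Bowtie2, TopHat and DESeq were used with the mm10 build, per the submitters' processing notes, with no version or order; the counter, annotation and strand setting are not given in the sources used here. Amplified reads without molecular identifiers are not independent molecules.

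Counts were fitted in R 4.3.3 with edgeR 4.0.16: filterByExpr by group, TMM scaling, the robust quasi-likelihood test, two-sided, on all 16 libraries with group and replicate number as terms, and Benjamini-Hochberg adjustment over the 12952 genes tested at 0.05. SE is the log2 fold change divided by the root of its F value. CPM uses TMM-scaled library sizes. The fit was tested on simulated data.

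The block follows the chosen comparison. The labels do not say what a replicate number stands for. After removing group means, same-numbered libraries were correlated over genes whose mean log2-CPM exceeded 5; all 4 correlations passed 0.1 for control with miR-27a, miR-23a with miR-24 and miR-23a with miR-27a, and 3 of 4 for the other pairs of groups (lowest -0.121 for control with miR-23a, 0.0304 for control with miR-24 and -0.0072 for miR-24 with miR-27a). Results without the block are therefore given beside those with it.

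Values in every library are given for genes called in any of 7 tests and for Slc7a5, Slc3a2, Asns, Atf4 and Ddit3; Trib3 and Chac1 were added after their values were seen. From each pathway list up to 3 called genes are named. The members and lists were chosen with earlier results of these data known. Alternatives were RLE size factors, DESeq2 1.42.0, limma 3.58.1 voom, other filters, and subsets of libraries.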

Additional observations from a re-analysis of the deposited data

Results flagged for a closer look

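In 4 of the 72 groups of 4 libraries looked at (18 genes in 4 mimic groups), 1 library stood far from the other 3; chance gives about 1 group in 20. Mars was at 81.4 CPM in control replicate 1, from 5 reads, with the other controls at 31.5 to 38.5 CPM. Psat1 was at 222 CPM in miR-24 replicate 1, from 1328 reads, with the others at 92.8 to 104 CPM. Slc1a4 was at 5.29 CPM in miR-23a replicate 1, from 59 reads, with the others at 1.58 to 2.05 CPM. Slc3a2 was at 85.0 CPM in miR-23a replicate 3, from 966 reads, with the others at 32.3 to 38.1 CPM.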

How the results depend on the processing

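The counts are of the 37 genes called. Without the replicate block they fell to 6 over all groups, 5 for miR-24 against control, 2 against miR-23a and 2 against miR-27a, and to 0 for miR-27a against control and against miR-23a. Without both the block and the shallow control library (chosen after seeing the data) they were 6, 6, 2, 1, 0 and 0. DESeq2 called 11 for miR-24 against miR-27a and 2 for miR-27a against miR-23a; voom called 8 over all groups and 2 for miR-27a against miR-23a. Without Rn45s, miR-27a against miR-23a gave 0. Without all libraries numbered 1, miR-24 gave 5 against miR-23a and 3 against miR-27a, and miR-27a gave 0 against control. With only the 8 libraries compared, miR-24 against miR-27a gave 3 and miR-27a against control 6. The cause was not tested. The other counts under these and the remaining alternatives stayed within 1.5 times the reported ones, and 0 of 32 fold changes of named genes reversed.

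Leaving out 1 library at a time gave 6 to 16 over all groups, 0 to 2 for miR-23a, 4 to 13 for miR-24 and 0 to 4 for miR-27a against control, 3 to 11 for miR-24 against miR-23a, 4 to 8 for miR-24 against miR-27a, and 0 to 2 for miR-27a against miR-23a. Slc7a5, Asns, Slc43a1 and Vars with miR-24 against control were called in each of these 16 fits and in all 10 other settings. The depth of control replicate 1 limits every comparison with control for genes of low count.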

Other observations

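Further lists were read for genes not described above. The shares of all genes called were 4.56% for miR-24 and 3.07% for miR-27a against control. Of 17 genes that sense amino acids through mTORC1, Sesn3, a sestrin that restrains mTORC1, fell with miR-24 against control by a log2 fold change of -0.78 ± 0.19 (SE, n = 4 per group; edgeR adjusted p = 0.0292, and 0.217 without the block).

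Of 5 genes of the MYC network, Myc itself passed no test. Its antagonist Mxd1 was lower than control with miR-27a (-0.95 ± 0.23; edgeR adjusted p = 0.0336) and with miR-24 (-0.83 ± 0.24; edgeR adjusted p = 0.04997), neither of them without the block. Mxi1, another antagonist, was higher with miR-27a than with control (0.88 ± 0.20; edgeR adjusted p = 0.0226, and 0.0745 without the block) and than with miR-23a (1.13 ± 0.19; edgeR adjusted p = 0.00275, and 0.0128 without the block). Nars2, the mitochondrial asparagine synthetase, was lower with miR-27a than with control (-1.47 ± 0.39; edgeR adjusted p = 0.0434, and 0.121 without the block).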
